A study of Homo sapiens with 6 samples.

Results

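Some entries of the miRNA catalogue have a mature sequence that also occurs, whole or nearly so, inside an abundant RNA of another class, such as the spliceosomal RNA U2 or a transfer RNA. The 6 entries hsa-miR-1246, hsa-miR-1290, hsa-miR-1260a, hsa-miR-1260b, hsa-miR-7977 and hsa-miR-10401-3p were followed here, out of 1596 mature miRNAs with read counts. They were taken by name, and those names were chosen by reputation for such an overlap and with their higher counts under IFN-γ already known, so their difference between treatments is given below as a description and not as a test.

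The libraries were small RNA of a human melanoma cell line after 24 hours with RSL3 alone (RSL3 monotreatment group, 3 libraries) or with RSL3 and IFN-γ together (combined treatment group, 3 libraries). RSL3 inactivates GPX4, the enzyme that repairs peroxidized membrane lipids, and thereby sets off ferroptosis. IFN-γ is a cytokine of activated T cells. Every library had received RSL3, and no untreated cells and no cells with IFN-γ alone were analysed here. The sample labels name the line A2058 whereas the methods of the study name A375, so the line could not be settled. Each is 1 established line. MiR-211-5p, whose hairpin lies within TRPM1 and which marks melanocytic cells, stood at 269.9 to 387 CPM (reads per 1e6 reads after TMM scaling) across the 6 libraries. MiR-204-5p stood at 161 to 344 CPM and miR-21-5p at 166336 to 420345 CPM. These levels are a description, and cell type was not tested. No source used here says that the replicates were separate cultures, and in bulk RNA fewer cells with a given RNA and less of it per cell cannot be told apart.

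A miRNA is cut by DROSHA and DICER from a hairpin, and the mature strand of about 22 bases guides Argonaute to messenger RNAs through its seed, bases 2 to 8. Structural RNAs are far more abundant than most miRNAs. U2 pairs with the branch point of introns in the spliceosome, and transfer RNAs carry amino acids on a 3′ CCA tail that is added after transcription. When such RNAs are broken or trimmed, their fragments enter small RNA libraries, and a read counter that knows only miRNAs assigns them to any entry with the same letters. The counts below are the reads assigned to these entries, and which RNA they came from was not determined.

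The mature sequences are shown because those found divide into 2 kinds. They are printed 5′ to 3′ from RefSeq (GRCh38.p14), with the seed in capitals, for the 5 of 6 entries found in that table. The last line is a stretch of the U2 gene RNU2-1 from GENCODE 29, written as RNA, in which capitals mark the 19 bases of miR-1246.
hsa-miR-1246: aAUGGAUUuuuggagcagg
hsa-miR-1290: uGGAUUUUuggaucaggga
hsa-miR-1260a: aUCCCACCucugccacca
hsa-miR-1260b: aUCCCACCacugccaccau
hsa-miR-7977: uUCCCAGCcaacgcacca
RNU2-1 stretch: auuaAAUGGAUUUUUGGAGCAGGgagau

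MiR-1246 was identical to bases 94 to 112 of RNU2-1, which is 191 bases long. Its own hairpin of 73 bases shared no longer exact run with RNU2-1 than those 19 bases. In the GENCODE set of small structural RNAs, 19 transcripts held miR-1246 without a mismatch, all of the snRNA class. MiR-1290 matched bases 96 to 114 of RNU2-1 except for U13G, with the base of miR-1290 first, the position counted from its 5′ end and the base of RNU2-1 last. Thus 0 structural transcripts held miR-1290 exactly and 23 held it with at most 1 mismatch. The run UGGAUUUUUGGA of 12 bases is common to miR-1246 and miR-1290, but it is shifted by 2 positions between them, so their seeds differ. Among all 1425 entries with a mature sequence, 0.842% matched a structural transcript exactly and 1.19% with at most 1 mismatch. For the snRNA class alone the shares were 0.0702%, which is miR-1246 itself, and 0.211%.

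The other sequences are of a different kind. MiR-1260a and miR-1260b were the same over 17 of 18 aligned bases, with the substitution U9A from miR-1260a to miR-1260b and 1 further base at the 3′ end of miR-1260b. They share the seed UCCCACC with each other and with no other of the 1425 entries that have a sequence. MiR-7977 matched miR-1260a at 11 of 18 positions and has a seed of its own among those entries. MiR-1260a, miR-1260b and miR-7977 all carry the letters CCA at the 3′ end or 1 base before it, as do 5.54% of the 1425 entries. None of them matched a GENCODE structural transcript with up to 1 mismatch. That set holds the 22 mitochondrial transfer RNAs, but as gene sequences without the CCA tail that is added after transcription. A match running into a tailed 3′ end could therefore not have been found, and nothing is read from this search for transfer RNAs. Transfer RNAs of the nucleus were not searched here. The 5 sequences are 18 or 19 bases long, against a median of 22 over all entries, of which 3.93% are this short (a bound chosen after the lengths were seen). Their GC content split in the same way, at 42.1% for miR-1246 and miR-1290, 57.9% for miR-1260b and 61.1% for miR-1260a and miR-7977, with a median of 52.0% over all entries.

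The hairpins lie apart in the genome (GENCODE 29, GRCh38). MIR1246 is at chr2:176600980-176601052 on the minus strand and MIR7977 at chr3:176515103-176515151 on the plus strand, both outside any other annotated gene. MIR1290 is at chr1:18897071-18897148, in an intron of ALDH4A1 and on its strand. ALDH4A1 encodes a mitochondrial enzyme of proline breakdown. MIR1260A at chr14:77266218-77266290 lies opposite an untranslated exon of NGB, the gene of neuroglobin. MIR1260B at chr11:96341438-96341526 lies opposite a coding exon of MAML2, a coactivator of Notch signalling.

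Reads were ample for each entry. The libraries held 4383940 to 6513382 counted reads, and the members had between 100 and 14709 reads in a library. Together they made up 0.117%, 0.167% and 0.130% of the reads in the RSL3 replicates 1, 2 and 3, and 0.220%, 0.834% and 0.553% in the combined treatment replicates 1, 2 and 3. All libraries of the combined treatment group were above all of the RSL3 group in this share, which uses no scaling, with means of 0.138% ± 0.0259 and 0.536% ± 0.307 (SD, n = 3 each). The combined treatment libraries were also spread more widely, replicate 1 lying close to the RSL3 group. The TMM factors were also lower for RSL3 alone (0.861 to 0.913) than for the combined treatment (0.944 to 1.33), and the fold changes under other scalings are given below.

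MiR-1246 and miR-1290, the U2-like sequences, had the largest fold changes. MiR-1246 had 819, 815 and 1707 reads in the RSL3 replicates and 2603, 6711 and 8208 in the combined treatment replicates. After scaling this gave 162, 182 and 299 CPM against 629, 1146 and 1325 CPM, with no overlap between the groups. The group means were 214 ± 73.9 and 1033 ± 361 CPM (SD, n = 3 each), and the log2 fold change was 2.27 with a standard error of 0.346.

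MiR-1290 was scarcer, with 100, 112 and 331 reads in the RSL3 replicates and 235, 1213 and 1644 in the combined treatment replicates. Its levels were 19.7, 25.0 and 57.9 CPM against 56.8, 207 and 265 CPM. The lowest library of the combined treatment group, replicate 1, lay just under RSL3 replicate 3, so the groups overlapped. The means were 34.2 ± 20.7 and 176 ± 108 CPM (SD, n = 3 each), at a log2 fold change of 2.36 with a standard error of 0.555. Of the 758 miRNAs tested, miR-1290 ranked 1 and miR-1246 ranked 2 by size of increase.

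MiR-1260b and miR-1260a, which share a seed, were the most abundant of these entries. MiR-1260b went from 582, 787 and 554 CPM in the RSL3 replicates to 819, 2512 and 1617 CPM in the combined treatment replicates. Its groups did not overlap, although combined treatment replicate 1 exceeded RSL3 replicate 2 only narrowly, and the log2 fold change was 1.36 (standard error 0.367). MiR-1260a went from 480, 634 and 450 CPM to 631, 1979 and 1228 CPM, where combined treatment replicate 1 fell just under RSL3 replicate 2. Its log2 fold change was 1.30 (standard error 0.371). The rule by which reads with several possible entries were assigned is not stated, so the separate levels of these near-identical entries are uncertain. Summed to 1 entry they had a log2 fold change of 1.34.

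MiR-7977, the third sequence with a CCA end, was found at 32.2, 48.7 and 35.9 CPM in the RSL3 replicates and at 56.5, 179 and 114 CPM in the combined treatment replicates. There was no overlap, and the log2 fold change was 1.59 (standard error 0.384).

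MiR-10401-3p changed least, from 83.2, 151 and 84.9 CPM to 139, 247 and 244 CPM. Combined treatment replicate 1 lay under RSL3 replicate 2, and the log2 fold change was 0.98 (standard error 0.319). The other arm of its hairpin, miR-10401-5p, had only 2, 0 and 2 reads in the RSL3 replicates and 5, 9 and 4 in the combined treatment replicates, and was too scarce to be tested.

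**Figure D1:**
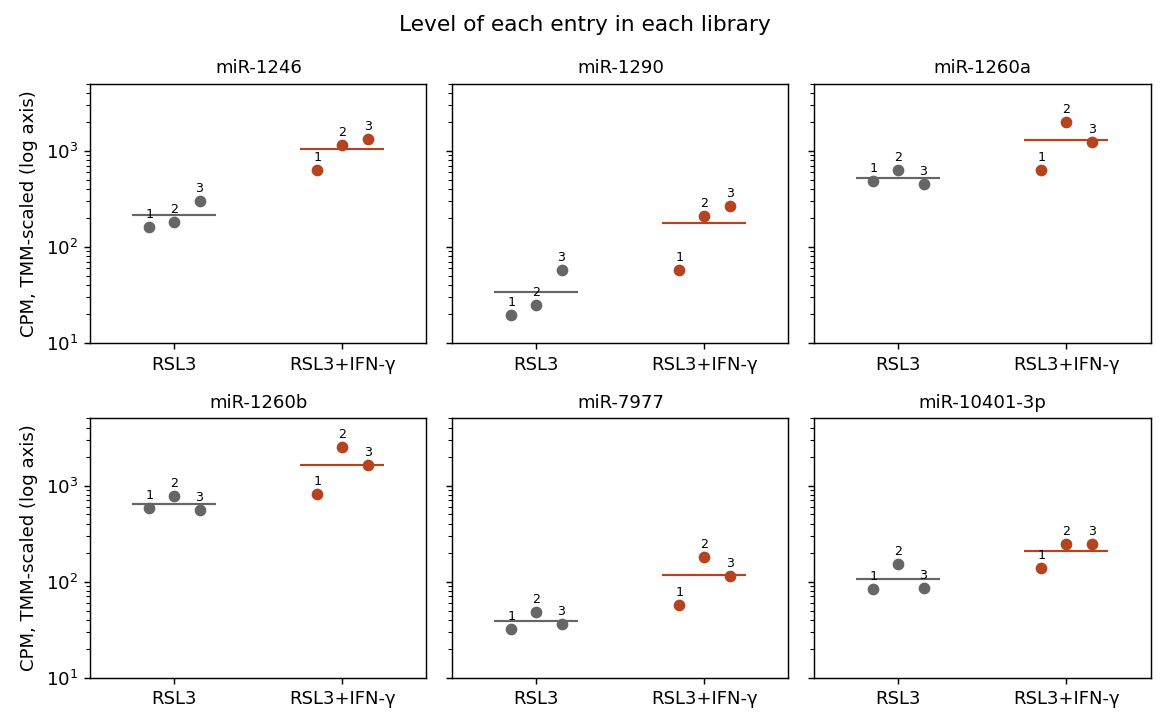
Level of each of the 6 entries in each library, in TMM-scaled CPM on a log axis. Points are libraries with their replicate numbers (3 RSL3, 3 RSL3 with IFN-γ) and bars are group means. Combined treatment replicate 1 is the lowest of its group for every entry, and it overlaps the RSL3 group for miR-1290, miR-1260a and miR-10401-3p.

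In edgeR's quasi-likelihood test across 758 miRNAs, 3 of the 6 were called higher with IFN-γ at a Benjamini-Hochberg adjusted p under 0.05, namely miR-1246, miR-1290 and miR-7977. Of all tested miRNAs 2.51% were called higher, and 4.75% in either direction. Every combined treatment library lay above every RSL3 library for 3 of the 6 (miR-1246, miR-1260b and miR-7977), as for 15% of all tested. Since the entries were picked with this comparison in view, nothing is read from these counts. With the replicate number as a block, all 6 were called higher, where 5.15% of all tested miRNAs were. The labels state no pairing, and that block rests on same-numbered libraries deviating together in these same counts.

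The number called depended on single libraries, as did the number over all tested miRNAs. Without RSL3 replicate 1, 2 or 3, edgeR called 0 of 810, 26 of 816 and 8 of 805 tested miRNAs higher. Without combined treatment replicate 1, 2 or 3 these were 45 of 815, 4 of 787 and 4 of 782. Of the 6 entries, 0 were called without RSL3 replicate 1. All 6 had an unadjusted p under 0.05 there, as had 124 of all 810 tested in either direction. The number called was 2 without RSL3 replicate 2 or 3. The count was 6 without combined treatment replicate 1, and 1 without combined treatment replicate 2 or 3. The fold changes kept their sign each time, at 2.04 to 2.56 for miR-1246, 1.93 to 2.95 for miR-1290, 0.83 to 1.62 for miR-1260a, 0.92 to 1.69 for miR-1260b, 1.12 to 1.92 for miR-7977 and 0.81 to 1.31 for miR-10401-3p on the log2 scale.

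**Figure D2:**
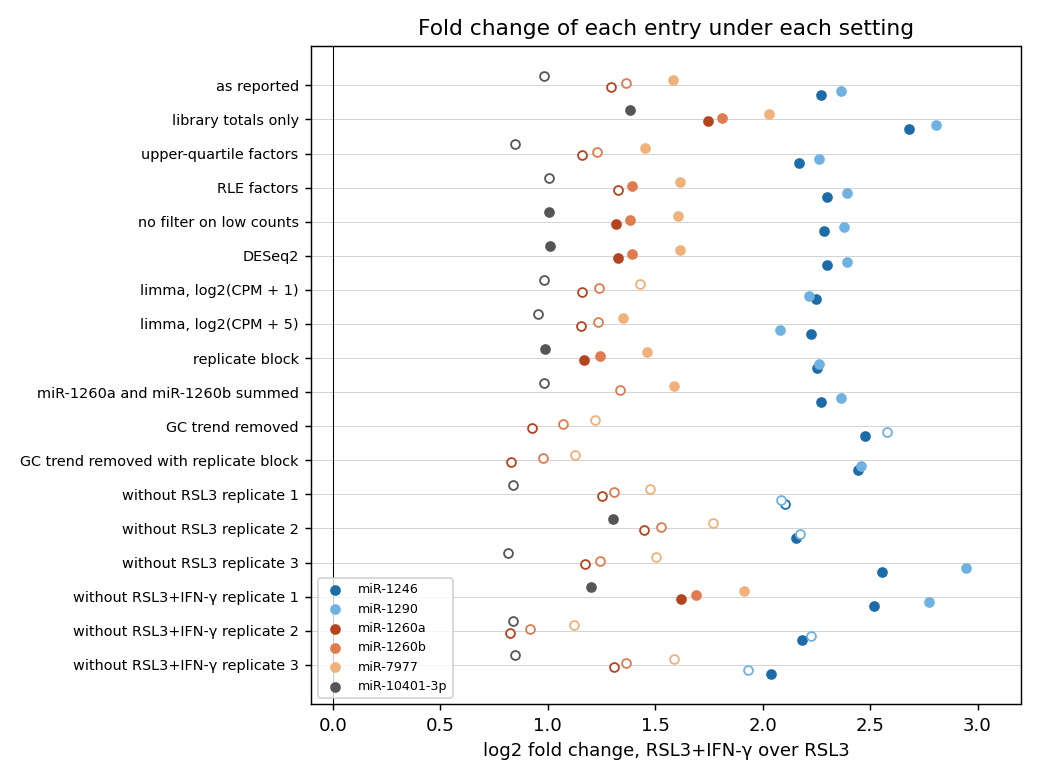
Log2 fold change of each entry, RSL3 with IFN-γ over RSL3, under each setting of the test. Points are filled where the adjusted p was under 0.05, and in the line with summed reads the miR-1260b point stands for miR-1260a and miR-1260b together. All points lie above 0, from 0.81 for miR-10401-3p to 2.95 for miR-1290.

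Scaling also moved the values, since the log2 fold change of the median tested miRNA moved from −0.04 (TMM) to 0.33 when the totals alone were used and to −0.13 after upper-quartile scaling. Relative to that median, miR-1246 stayed between 2.30 and 2.35, miR-1290 between 2.39 and 2.47, miR-7977 between 1.58 and 1.70, miR-1260b between 1.36 and 1.48, miR-1260a between 1.29 and 1.41, and miR-10401-3p between 0.98 and 1.05 over the scalings tried.

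Apart from the difference between treatments, the libraries within a group fell into 2 patterns. For miR-1246 and miR-1290 the highest library was replicate 3 in both groups. For miR-1260a, miR-1260b and miR-7977 it was replicate 2 in both groups. The same held for miR-10401-3p, whose sequence was not found, though only narrowly in the combined treatment group (247 against 244 CPM in replicate 3). Whether these patterns follow the sequences was not tested. The summed level of miR-1246 and miR-1290 was 1.17 times as high in replicate 3 as in replicate 2 of the combined treatment group, at 1590 and 1353 CPM. That of miR-1260a, miR-1260b and miR-7977 was 1.58 times as high in replicate 2 as in replicate 3, at 4671 and 2959 CPM.

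This was seen most plainly in the deviations of log2(CPM + 1) from the group means. Over the 6 libraries these deviations correlated at 0.995 (Pearson) between miR-1246 and miR-1290, at 0.999 between miR-1260b and miR-1260a, and at 0.992 between miR-1260b and miR-7977. Between miR-1246 and miR-1260b the value was 0.520. The points share libraries, depth and scaling, and removing the group means ties them to each other, so these values are descriptive. How reads fitting both miR-1260a and miR-1260b were assigned is not stated, so these entries may hold the same reads, which was not tested. As a yardstick, of the 472 other tested miRNAs whose mean reached 10 CPM, miR-1290 was the one most like miR-1246 in this measure, where the median was 0.0922 and 6 miRNAs, miR-1290 included, were above 0.95. MiR-1260a ranked 1 and miR-7977 ranked 2 for likeness to miR-1260b, with a median of −0.0462 and 9 miRNAs above 0.95, these entries included, while miR-10401-3p ranked 33 at 0.837 and miR-1246 ranked 119.

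**Figure D3:**
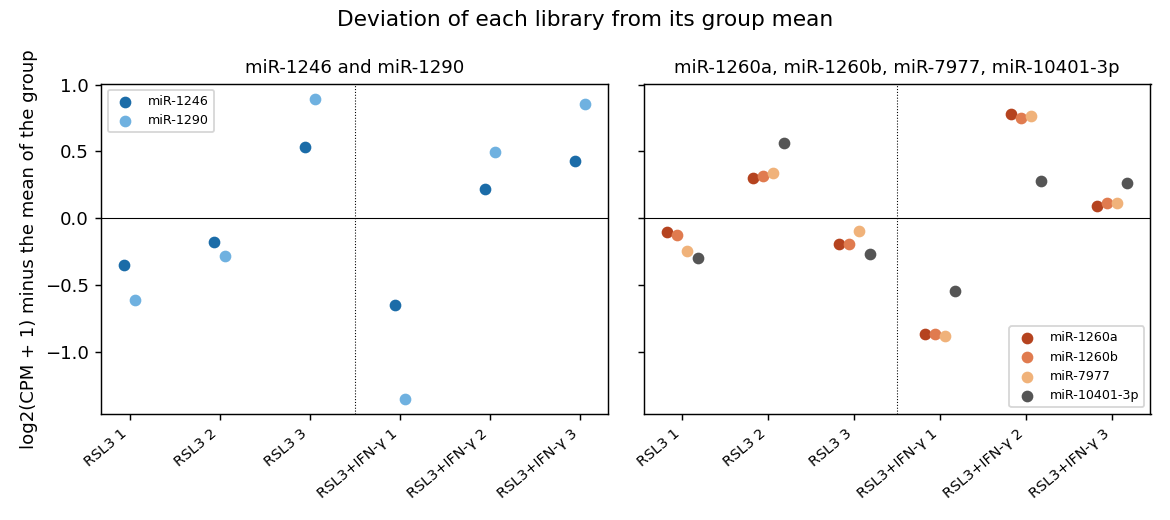
Deviation of log2(CPM + 1) in each library from the mean of its group, for miR-1246 and miR-1290 (left) and the other entries (right). Each point is 1 entry in 1 library. MiR-1246 and miR-1290 are highest in replicate 3 of each group. MiR-1260a, miR-1260b, miR-7977 and, narrowly with IFN-γ, miR-10401-3p are highest in replicate 2. Combined treatment replicate 1 is lowest for all.

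Ratios of reads within a library, which no scaling can change, were steadiest among miR-1260a, miR-1260b and miR-7977. The ratio of miR-1260a to miR-1260b was 0.825, 0.805 and 0.812 in the RSL3 replicates and 0.770, 0.788 and 0.760 in the combined treatment replicates, so it varied by 1.09 times over all libraries while the level of miR-1260b varied by 3.07 times within the combined treatment group alone. The ratio was lower in all libraries with IFN-γ, by a small step from 0.814 ± 0.00981 to 0.772 ± 0.0144 (SD, n = 3 each). Whether reads fitting both miR-1260a and miR-1260b enter this ratio was not tested. The ratio of miR-7977 to miR-1260b lay between 0.0553 and 0.0715 and was higher in all libraries with IFN-γ. MiR-1290 made 0.0903 to 0.200 of the reads of miR-1246, with overlapping groups (0.151 ± 0.0378 and 0.157 ± 0.0587, SD, n = 3 each), so no difference in this proportion was seen beyond its wide spread.

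Across the sets the proportions moved more. The ratio of miR-1246 to miR-1260b was 0.278, 0.232 and 0.539 in the RSL3 replicates and 0.767, 0.456 and 0.819 in the combined treatment replicates, which overlapped. MiR-10401-3p stood at 0.515, 0.831 and 0.284 of miR-1246 in the RSL3 replicates and at 0.221, 0.215 and 0.184 in the combined treatment replicates, lower in every library with IFN-γ.

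By level, miR-1260b was the highest entry in all 6 libraries. MiR-1260a came next in 5 libraries and miR-1246 in combined treatment replicate 3. In the RSL3 group the order went on with miR-1246, miR-10401-3p, miR-7977 and miR-1290. MiR-7977 and miR-1290 changed places in RSL3 replicate 3, and with SDs of 8.70 and 20.7 CPM around means of 38.9 and 34.2 CPM they did not differ beyond their spread. In the combined treatment group miR-1246 at 1033 ± 361 CPM lay within the spread of miR-1260a at 1279 ± 676 CPM, and miR-1290 at 176 ± 108 CPM within that of miR-10401-3p at 210.0 ± 61.3 CPM (SD, n = 3 each). Among all 1596 miRNAs, miR-1246 moved from rank 155 by mean level in the RSL3 group to rank 80 in the combined treatment group, miR-1290 from 316 to 168 and miR-1260b from 94 to 64.

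GC content set the sequence kinds apart once more. Across 679 tested miRNAs, which are not independent replicates, GC content and log2 fold change had a Spearman correlation of 0.469. The 208 other tested miRNAs with a GC content of at most 45% had a median log2 fold change of −0.48, and 0 of them were called higher by edgeR, DESeq2 or limma (6 at an unadjusted p under 0.05 for an increase in edgeR). MiR-1290 and miR-1246, at 42.1%, belong to that class. They ranked 1 and 2 of all 758 and so head any class that holds them, and nothing is read from that place. Next in that class was miR-4804-5p, with a log2 fold change of 1.87. MiR-1260a, miR-1260b and miR-7977 lay among 213 other miRNAs of at least 55% GC whose median was 0.34. When the GC trend was removed in each library, the log2 fold changes of miR-1246 and miR-1290 went to 2.47 and 2.58, and those of miR-1260a, miR-1260b and miR-7977 to 0.93, 1.07 and 1.22. Then only miR-1246 of the 5 was called, where 4 of all 679 tested miRNAs were called higher. With the replicate block miR-1246 and miR-1290 were called, where 9 of all 679 were called higher. MiR-10401-3p was left out of that fit.

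From background knowledge, 19 other names of entries described as lying in structural or mitochondrial RNA were listed. Of these, 9 were in the table and 5 were abundant enough to be tested. Only miR-4485-3p of the 5 matched a GENCODE structural transcript here with up to 1 mismatch, and transfer RNAs of the nucleus were not searched. Of the 5, 0 were called by edgeR with or without the replicate block, or by limma. At an unadjusted p under 0.05 edgeR gave 2, where 196 of all 758 tested miRNAs had such a p in either direction. DESeq2 called 2 at the adjusted threshold, miR-5100 and miR-6724-5p, where over all tested miRNAs it called 52 higher and 43 lower. The list's median log2 fold change was 0.49, against −0.04 over all tested miRNAs. MiR-5100 went from 42.1 to 99.97 CPM (log2 fold change 1.25, standard error 0.386) and miR-6724-5p from 12.9 to 27.4 CPM (1.08, standard error 0.281). MiR-4454 was level at 38.1 and 36.9 CPM (−0.04), and miR-4484 had a log2 fold change of 0.49.

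A second list was drawn from the sequences alone. Besides miR-1246, 11 entries matched a GENCODE structural transcript exactly, in small nucleolar or Cajal body RNAs and, for miR-4485-3p, in mitochondrial ribosomal RNA. Of the 7 tested, 0 were called by edgeR with or without the block, by DESeq2 or by limma, and 0 had an unadjusted p under 0.05 in edgeR (1 with the block). Over all 758 tested miRNAs, 196 had such a p in edgeR and 216 with the block. Of these 7, 4 had a positive log2 fold change, and the median was 0.09. The most abundant were miR-1843 (16.3 and 17.3 CPM), miR-664a-5p (7.87 and 12.7 CPM), miR-664a-3p (9.38 and 5.43 CPM) and miR-6516-5p (5.37 and 6.97 CPM), all far below miR-1246.

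Outside the 6 entries, the miRNAs whose levels over the 6 libraries were most like those of miR-1246, out of 467 whose mean reached 10 CPM, were miR-296-3p (Pearson correlation of log2(CPM + 1) 0.980), miR-378e (0.968) and miR-30a-3p (0.962). For miR-1260b they were miR-1306-3p (0.996), miR-125a-3p (0.985) and miR-4664-3p (0.974). On the same measure miR-1290 stood at 0.961 with miR-1246, below those 3, and miR-1260a and miR-7977 stood at 0.999 and 0.995 with miR-1260b. These correlations hold the difference between treatments and the shared depth of the libraries, and are given as a description.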

How the data were processed

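Small RNA counts of 6 libraries were grouped by the treatment in the sample labels. Sequencing was on an Illumina HiSeq by the methods of the study. According to the submitters' processing notes, Bowtie 1.1.1 and bcl2fastq were among the tools and GRCh38 was the build, along with edgeR. How multiply matching reads were counted was not stated. The deposited table holds raw read counts per mature miRNA (used here), a normalized signal of the authors, and the authors' log2 fold change, linear fold and p-value (none of these used). Library totals set the counting precision, and a p-value here covers the spread among the sequenced libraries alone.

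The main test was the quasi-likelihood test of edgeR 4.0.16 under R 4.3.3 (two-sided, TMM, filterByExpr with a minimum count of 10 and total of 15, Benjamini-Hochberg over 758 of 1596), checked on simulated data. DESeq2 1.42.0, limma 3.58.1 (log2(CPM + 1) or + 5), other scalings, no filter, a replicate block, a GC correction (loess, span 0.75) and leaving out each library were alternatives. Same-numbered libraries deviated together (correlations 0.249, 0.233 and 0.224, each over 0.1), which is the only source of the pairing. No pair of libraries was alike to within sampling error (lowest chi-square over its degrees of freedom 125).

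Sequences came from RefSeq (1425 of 1596 names matched) and were searched on the sense strand in the snRNA, snoRNA, scaRNA, rRNA, mitochondrial and other small RNA transcripts of GENCODE 29. The members, lists and rules were chosen with earlier results of these data known. Named are the members, the other arm of miR-10401, up to 4 of each list by mean CPM, and the 3 miRNAs most like miR-1246 and miR-1260b. MiR-211-5p, miR-204-5p, miR-21-5p, miR-4804-5p, the short miRNAs and the classes by length and GC were chosen after values were seen.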

Additional observations from a re-analysis of the deposited data

How the results depend on the processing

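The number of the 6 entries called higher with IFN-γ, 3 by edgeR with TMM, was 6 with library totals only, 6 with no filter on low counts, 6 with DESeq2 and 6 with the replicate block. It was 1 of 5 with the GC trend removed, where fewer miRNAs could be tested, and it ran from 0 to 6 with each library left out in turn. With upper-quartile factors, RLE factors, limma with either pseudocount, miR-1260a and miR-1260b summed, or the GC correction with the replicate block, it stayed within 1.5 times of 3. The cause of these differences was not tested. The log2 fold change of each entry was positive under every alternative tried. MiR-1246 was called in 16 of 17 alternatives, the exception being without RSL3 replicate 1, and miR-1260a in 5 of 16. Over all tested miRNAs, 19 were higher and 17 lower by edgeR, against 60 and 11 with library totals only, 52 and 43 with DESeq2, 50 and 56 with no filter, 39 and 43 with the replicate block, and 4 and 1 with the GC trend removed. They were 15 and 24 with upper-quartile factors, 28 and 18 with RLE factors, and 17 and 19 or 26 and 25 with limma (+ 1 or + 5). With miR-1260a and miR-1260b summed they were 19 and 17 of 757, and with the GC correction and the replicate block 9 and 8 of 679. Without RSL3 replicate 1, where no other tool was run, edgeR called 0 of 810, with 124 at an unadjusted p under 0.05.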

Other observations

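Length was looked at after the members proved to be short. Of the tested miRNAs, 20 had a mature sequence of at most 19 bases, 5 of them members. The other 15 had a median log2 fold change of 0.65, 12 of the 15 were above 0, and 1, miR-548f-3p (log2 fold change −2.25), was called lower by edgeR. None was called higher by edgeR or limma, while 5 had an unadjusted p under 0.05 in that direction in edgeR and 3 were called higher by DESeq2. The 659 tested miRNAs of at least 20 bases had a median of −0.05. Of these 659, 72 had an unadjusted p under 0.05 for an increase in edgeR. In that direction 13 were called by edgeR, 13 by limma and 36 by DESeq2. Among the short ones, miR-1268a went from 67.1 to 164 CPM (log2 fold change 1.29, standard error 0.501), miR-320d from 42.1 to 99.3 CPM (1.24, standard error 0.316) and miR-1275 from 6.68 to 16.5 CPM (1.32, standard error 0.432), whereas miR-7976 was level at 17.9 and 18.6 CPM and miR-320e at 16.3 and 15.6 CPM. The median GC content of these 15 was 47.4%, against 50.0% for the longer miRNAs. Whether sequence length or the size of the selected fragments plays a part in these differences was not tested.

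The 18 other tested miRNAs with CCA at or 1 base before the 3′ end had a median log2 fold change of 0.15, 11 of them above 0, and 0 were called by edgeR or limma, against 2 higher and 2 lower at an unadjusted p under 0.05 in edgeR and 1 called lower by DESeq2. Over all 758 tested miRNAs, 196 had an unadjusted p under 0.05 in edgeR in either direction.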
